A study of Homo sapiens with 6 samples.

Results

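Mitochondrial ribosomal protein genes were examined by RNA sequencing in the cell line SU-DHL-8, which derives from a human large B-cell lymphoma of the diffuse kind. Cells labelled wild type were given 100 nM erianin for 24 h, or DMSO, the solvent, for the same time, with 3 libraries in each group. The labels do not say whether the 3 came from separate cultures. Each p-value sets a group difference against the spread between these libraries only, and that spread may be technical variation. Erianin is a bibenzyl from Dendrobium orchids described as a tubulin ligand, and the series title places it in a study of pyroptosis through GSDMD, a pore-forming protein. The 77 genes are the rows of the count table whose symbol is MRPL or MRPS followed by a number, with or without a letter from A to C, and whose counts summed to at least 20 over the 6 libraries. They stand among 65746 rows. By symbol, 48 belong to the large (MRPL) and 29 to the small (MRPS) subunit. MRPS24 was nearest the threshold, with 56 counts in all. MRPL58, a peptidyl-tRNA hydrolase built into the large subunit, matched the pattern but was listed at 0 in every library, where 3 counts would equal 0.0843 to 0.0969 CPM. It was not analysed further, and the 0 says nothing firm about whether the gene is expressed.

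The mitochondrial ribosome translates the few mRNAs that mitochondrial DNA encodes, all of them for subunits of the oxidative phosphorylation complexes. Its rRNAs are transcribed inside the organelle, while every one of its proteins is encoded in the nucleus, made in the cytosol and imported. Many of these proteins have a bacterial homolog, and others are found only in mitochondria. The large subunit forms peptide bonds, and the small subunit decodes the mRNA. Symbols do not always follow the structure: the products of MRPS18A (protein mL66) and MRPS30 (protein mL65) sit in the large subunit.

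Total counts ran from 30956443 to 35588728 per library, of which the 77 genes took 0.563%, 0.553% and 0.559% with erianin and 0.512%, 0.574% and 0.571% in DMSO replicates 1, 2 and 3. B-cell markers had 7 of 7 over 1 CPM and summed to 2245 to 2512 CPM with erianin and 2677 to 3696 CPM with DMSO, while T-cell, erythroid, epithelial and fibroblast markers summed to no more than 0.219 CPM in any library. Myeloid markers summed to 9.36 to 10.6 CPM with erianin and 4.30 to 7.27 CPM with DMSO, with 1 of 4 over 1 CPM. The part of the B-cell and myeloid differences in the results was not tested. DMSO replicate 1 stood apart. Its biological coefficient of variation was 0.292 and 0.2955 against the other DMSO libraries, which differed from each other by 0.0380. The erianin libraries differed from DMSO replicates 2 and 3 by 0.239 to 0.256, less than DMSO replicate 1 did. In DMSO replicate 1, 52 of the 76 tested members were below both other DMSO libraries and 22 were above both. Over all 11550 genes tested, 4900 were below both and 5583 above both. The members' log2 differences ran from -2.325 for MRPL12 to 0.87 for MRPS11. Their median was -0.19, against 0.04 over all genes tested. Counts of calls are therefore given with all 6 libraries and without DMSO replicate 1. Levels are in CPM, which divides a count by the TMM-adjusted library total, and a gene is said to rise or fall where edgeR's quasi-likelihood F test gave a Benjamini-Hochberg adjusted p under 0.05 over all genes tested. A call with 6 libraries is one of this test with TMM scaling and no offsets, unless another setting is named. Log2 fold changes are erianin over DMSO, ± SE, and gene coordinates are those of GENCODE 29 on GRCh38. In bulk RNA, fewer transcripts per cell and fewer cells that make them cannot be told apart.

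The promoters of the 3 members with the largest change are shown, since nuclear genes for mitochondrial proteins are known for ETS-family (GABP), YY1 and NRF1 sites near their starts. The windows are RefSeq's (GRCh38.p14), 250 bases before to 50 after the gene's first listed start, on the gene's strand. They are chr1:54199917-54200216 (plus strand) for MRPL37, chr6:43687742-43688041 (minus strand) for MRPS18A and chr15:88467458-88467757 (plus strand) for MRPS11. Capitals mark an ETS match (CCGGAAG), a YY1 match (AAGATGGCG), an NRF1 half-site (GCGCATGC), an E-box (CACGTG) or a CCAAT box (CCAAT) on either strand.
MRPL37: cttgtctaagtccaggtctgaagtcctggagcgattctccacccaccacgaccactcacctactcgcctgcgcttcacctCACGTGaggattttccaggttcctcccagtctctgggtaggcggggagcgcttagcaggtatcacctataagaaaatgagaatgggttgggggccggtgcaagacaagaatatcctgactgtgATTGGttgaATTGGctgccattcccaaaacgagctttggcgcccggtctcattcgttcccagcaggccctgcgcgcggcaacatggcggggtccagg
MRPS18A: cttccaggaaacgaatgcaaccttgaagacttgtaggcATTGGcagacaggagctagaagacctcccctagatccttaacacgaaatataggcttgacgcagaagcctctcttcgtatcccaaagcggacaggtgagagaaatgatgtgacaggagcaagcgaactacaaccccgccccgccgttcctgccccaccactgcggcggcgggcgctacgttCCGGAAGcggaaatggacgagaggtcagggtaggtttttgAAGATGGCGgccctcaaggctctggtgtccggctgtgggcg
MRPS11: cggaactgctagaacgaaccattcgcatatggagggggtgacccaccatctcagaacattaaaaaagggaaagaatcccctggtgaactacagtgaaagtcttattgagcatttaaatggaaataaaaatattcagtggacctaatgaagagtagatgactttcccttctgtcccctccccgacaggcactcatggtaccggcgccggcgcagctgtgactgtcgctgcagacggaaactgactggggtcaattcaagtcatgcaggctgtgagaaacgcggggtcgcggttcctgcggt
The MRPS18A window held a CCAAT box in reverse orientation, an ETS match before the listed start and a YY1 match just after it. The MRPL37 window held an E-box and a pair of CCAAT boxes in reverse orientation, and the MRPS11 window held none of these motifs. The first listed RefSeq starts of MRPL37 and MRPS11 lie inside the gene as GENCODE 29 draws it, so these 2 windows leave out the GENCODE start.

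Over all 6 libraries, 4 mitochondrial ribosomal protein genes rose with erianin and 5 fell, and 67 of the 76 tested did not pass the test. The 4 that rose (5.26%) compare with 11.8% of all genes tested, and the 5 that fell (6.58%) with 12.3%. Both shares were below the background in this fit. The share that fell was above it without DMSO replicate 1 (31.6% against 27.4%). The same held with offsets for GC content and length on 6 libraries (23.7% against 18.1%). Of the 9 called with 6 libraries, 5 encode small-subunit proteins by symbol and 4 encode large-subunit proteins, out of 28 and 48 tested. The 5 include MRPS18A, whose product sits in the large subunit. The split depended on scaling, with 7 higher and 5 lower under upper-quartile scaling and 8 higher and 3 lower with total counts alone. Over all genes tested the shares moved likewise, to 15.3% higher and 9.5% lower with upper-quartile scaling and 15.9% higher and 7.9% lower with total counts, as the median log2 fold change of all genes went to 0.082 and 0.106. The groups did not overlap for 18 members that were higher (23.7%, against 23.6% of all genes tested) and for 12 that were lower (15.8%, against 23.1%).

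MRPL37, a mitochondria-specific protein of the large subunit (ENSG00000116221, chromosome 1, 54184041 to 54225464, plus strand), fell by about as much as MRPS18A with 6 libraries, and by less than it without DMSO replicate 1. Its level was 166, 152 and 160.0 CPM in the erianin libraries, against 406.5, 264 and 262.5 CPM in the DMSO libraries. All erianin libraries lay below all DMSO libraries, among which replicate 1 was the highest. The log2 fold change was -0.96 ± 0.18 (SE, adjusted p = 0.011), and without DMSO replicate 1 it was -0.71 ± 0.06 (adjusted p = 3.7e-10). MRPL37 alone took 4.89%, 4.64% and 4.70% of the large-subunit CPM with erianin, against 13.1%, 7.07% and 7.14% with DMSO. Its call ended without any 1 erianin library (adjusted p up to 0.067).

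MRPS18A is 1 of 3 human homologs of bacterial ribosomal protein S18 (ENSG00000096080, chromosome 6, 43671303 to 43687791, minus strand). It had 68.7, 55.3 and 71.8 CPM with erianin, against 132.5, 127 and 122 CPM with DMSO. DMSO replicate 1 was close to the other DMSO libraries here, and the groups were well apart. The log2 fold change was -0.96 ± 0.13 (adjusted p = 0.0035) and, without DMSO replicate 1, -0.92 ± 0.08 (adjusted p = 9.3e-10), and it was the one member called whichever single library was left out (adjusted p up to 0.030). On the log2(TPM + 1) and log2(TPM + 0.1) scales its adjusted p was 0.069 and 0.072. On these scales the median log2 fold change over all genes was 0.202 and 0.277, against -0.003 in the main fit. In GENCODE 29, 47.0% of its exonic bases lie opposite RSPH9, and the handling of strand in the counts is not known.

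The other homologs of S18 gave no call with 6 libraries in edgeR with TMM scaling, but DESeq2 called both, MRPS18B lower (-0.24, adjusted p = 0.020) and MRPS18C higher (0.39, adjusted p = 0.036). In edgeR, offsets for GC content and length also called MRPS18B (adjusted p = 0.033), and upper-quartile scaling and total counts called MRPS18C (adjusted p = 0.038 and 0.033). MRPS18B, which stays in the small subunit as protein mS40, had 100.4, 95.1 and 98.2 CPM with erianin, against 114, 117 and 115 CPM with DMSO (adjusted p = 0.097). With that group's replicate 1 left out it fell by a small amount (-0.23 ± 0.06, adjusted p = 0.0030). MRPS18C, which occupies the S18 site of the small subunit, had 13.8, 16.9 and 14.7 CPM with erianin, against 10.5, 11.5 and 12.4 CPM with DMSO (adjusted p = 0.067). It rose when DMSO replicate 1 was left out (0.35 ± 0.11, adjusted p = 0.0091), and 40.2% of its exonic bases lie opposite ABRAXAS1. The ratio of MRPS18C to MRPS18A in CPM was 0.201, 0.305 and 0.205 with erianin, against 0.0791, 0.0910 and 0.102 with DMSO. These groups could not overlap, since MRPS18C was higher and MRPS18A lower in every erianin library than in every DMSO library. A two-sided exact permutation test therefore had to give p = 0.1, the smallest that 3 against 3 libraries allow. The ratio adds no support beyond the values of these genes.

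MRPS11, the homolog of bacterial S11 (chromosome 15, 88467453 to 88480773, plus strand), had 47.2, 41.2 and 47.0 CPM with erianin, against 119.5, 66.4 and 64.3 CPM with DMSO. It fell (-0.89 ± 0.24, adjusted p = 0.037), and by less without DMSO replicate 1 (-0.52 ± 0.08, adjusted p = 2.8e-06). Its call ended without any 1 erianin library (adjusted p up to 0.15) and with total counts alone (adjusted p = 0.061).

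MRPS2, the homolog of bacterial S2 (chromosome 9, 135499984 to 135504673, plus strand), had 66.4, 71.0 and 82.1 CPM with erianin, against 101.5, 100.3 and 102.7 CPM with DMSO. It fell (-0.47 ± 0.11, adjusted p = 0.023) with a similar value without DMSO replicate 1 (-0.46 ± 0.08, adjusted p = 1.6e-05). Its call ended without erianin replicate 1 or 2 or DMSO replicate 2 or 3 (adjusted p up to 0.13), with total counts alone (adjusted p = 0.052) and on both log2 TPM scales (adjusted p = 0.53 and 0.54).

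MRPL30, the homolog of bacterial L30, had 32.5, 31.3 and 27.3 CPM with erianin, against 40.7, 47.55 and 45.1 CPM with DMSO. It fell (-0.55 ± 0.12, adjusted p = 0.016), and without DMSO replicate 1 as well (-0.60 ± 0.08, adjusted p = 1.4e-06). The identifier beside this symbol, ENSG00000273155, belongs in GENCODE 29 to an unnamed coding gene (chromosome 2, 99154998 to 99195298, plus strand), 83.7% of whose exonic bases are shared with MRPL30, LIPT1 and a further gene. Its counts may therefore not be those of MRPL30 alone. The call ended without DMSO replicate 2 or any 1 erianin library (adjusted p up to 0.081) and on both log2 TPM scales (adjusted p = 0.47 and 0.48).

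**Figure D1:**
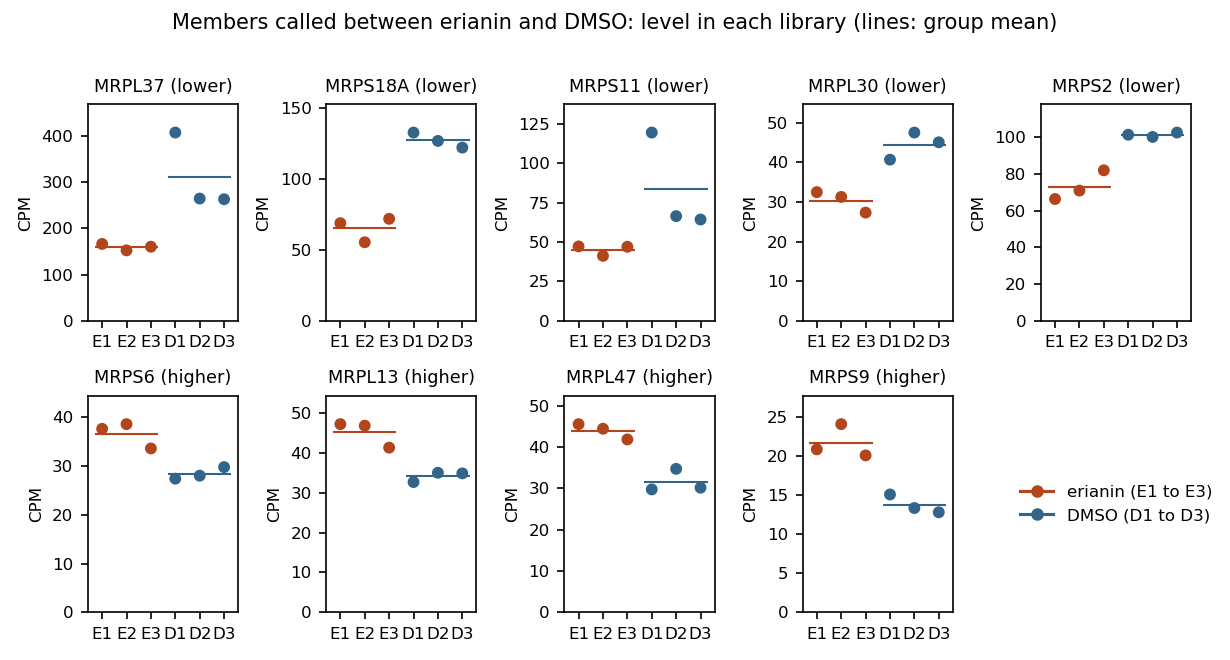
Level of the 9 called members in each library (y axes: CPM, from 0; x axes: erianin libraries E1 to E3, then DMSO libraries D1 to D3), with a line at each group mean. In all 9 panels the erianin points lie on one side of the DMSO points, and D1 stands far above D2 and D3 for MRPL37 (406.5 CPM) and MRPS11 (119.5 CPM).

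MRPS9, the homolog of bacterial S9 (chromosome 2, 105037983 to 105099960, plus strand), had 20.9, 24.1 and 20.1 CPM with erianin, against 15.1, 13.4 and 12.8 CPM with DMSO. Of the 4 members that rose it had the highest fold change (0.66 ± 0.13, adjusted p = 0.012), with 0.74 ± 0.10 (adjusted p = 1.2e-06) without DMSO replicate 1. Its call ended without erianin replicate 1 or 2 (adjusted p up to 0.069).

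MRPL47, the homolog of bacterial L29 (chromosome 3, 179588285 to 179604654, minus strand), had 45.55, 44.4 and 41.8 CPM with erianin, against 29.8, 34.7 and 30.2 CPM with DMSO (0.48 ± 0.11, adjusted p = 0.020). MRPL13, the homolog of bacterial L13 (chromosome 8, 120380761 to 120445402, minus strand), had 47.2, 46.8 and 41.3 CPM with erianin, against 32.65, 34.98 and 34.8 CPM with DMSO (0.40 ± 0.10, adjusted p = 0.032). MRPS6, the homolog of bacterial S6 (chromosome 21, 34073224 to 34143034, plus strand), had 37.6, 38.6 and 33.6 CPM with erianin, against 27.4, 28.01 and 29.8 CPM with DMSO (0.37 ± 0.11, adjusted p = 0.044). In each of these the lowest erianin library was above the highest DMSO library, and DMSO replicate 1 was near the other DMSO libraries. Their calls ended without any 1 erianin library, without DMSO replicate 3 and, for MRPL13 and MRPS6, without DMSO replicate 2 (adjusted p up to 0.097 for MRPL47, 0.14 for MRPL13 and 0.18 for MRPS6). MRPL13 and MRPS6 also lost their calls with no filter (adjusted p = 0.060 and 0.090) and with offsets for GC content and length (adjusted p = 0.056 and 0.058), and on the log2(TPM + 1) scale MRPL47, MRPL13 and MRPS6 had adjusted p = 0.077, 0.094 and 0.10.

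Without DMSO replicate 1, 16 of the 76 members rose and 24 fell, and 36 did not pass the test. The 16 (21.1%) compare with 27.8% of all genes tested in those 5 libraries, and the 24 (31.6%) with 27.4%. These 40 included all 9 members called with 6 libraries, in the same direction. The changes were small: 6 of the 40 reached 1.5-fold, 1 upwards and 5 downwards, against 2394 of the 6505 genes called in all (36.8%). With offsets for GC content and length on the same 5 libraries 21 rose (27.6%) and 31 fell (40.8%), against a background of 30.7% and 31.0%. Among them were all 40, again in the same direction. With such offsets on all 6 libraries 4 rose (5.26%) and 18 fell (23.7%), against a background of 17.6% and 18.1%.

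The members with the smallest p among those that fell without DMSO replicate 1 were MRPL37, MRPS18A, MRPL28, MRPS16 and MRPL54. MRPL28, the homolog of bacterial L28, had 124, 124 and 143.5 CPM with erianin, against 117, 213 and 203 CPM with DMSO. Its fall (-0.66 ± 0.07, adjusted p = 8.7e-09) was not called with 6 libraries (adjusted p = 0.18), where DMSO replicate 1 lay below the erianin libraries, but was called on them with offsets for GC content and length (-0.51, adjusted p = 0.0066).

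MRPS16, the homolog of bacterial S16, showed the same arrangement, with 120.5, 115 and 117 CPM with erianin, against 93.7, 164 and 168 CPM with DMSO (-0.49 ± 0.06 without DMSO replicate 1, adjusted p = 2.5e-07). MRPL54, a mitochondria-specific protein of the large subunit, had 21.7, 20.8 and 24.6 CPM with erianin, against 14.3, 34.9 and 35.9 CPM with DMSO (-0.65 ± 0.09, adjusted p = 7.0e-07). With 6 libraries MRPS16 had adjusted p = 0.40 and MRPL54 had adjusted p = 0.48, and with offsets 0.40 and 0.043.

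MRPL12, which forms the flexible stalk of the large subunit and is also known to bind the mitochondrial RNA polymerase, was the member most reduced in DMSO replicate 1. It had 13.2, 14.4 and 16.1 CPM with erianin, against 4.205, 21.1 and 21.1 CPM with DMSO. It was not called with 6 libraries (-0.09 ± 0.51, adjusted p = 0.91), and fell without DMSO replicate 1 (-0.52 ± 0.10, adjusted p = 8.4e-05). In GENCODE 29 it shares 68.2% of its exonic bases with another gene on the same strand.

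The 5 with the smallest p among those that rose in these 5 libraries were MRPS9, MRPL50, MRPL47, MRPL13 and MRPS30. MRPL50, a mitochondria-specific protein of the large subunit, had 21.96, 23.1 and 21.6 CPM with erianin, against 20.6, 15.4 and 15.9 CPM with DMSO (0.52 ± 0.09, adjusted p = 3.9e-05 without DMSO replicate 1, against adjusted p = 0.10 with 6 libraries). On 6 libraries it was called with upper-quartile scaling (adjusted p = 0.044), with offsets (adjusted p = 0.020) and on the log2(TPM + 1) and log2(TPM + 0.1) scales (adjusted p = 0.026 and 0.028). On those TPM scales the median over all genes was itself 0.202 and 0.277. MRPS30, which encodes the large-subunit protein mL65, had 55.3, 58.8 and 54.6 CPM with erianin, against 72.5, 46.8 and 43.7 CPM with DMSO. The erianin libraries lay below DMSO replicate 1 and above replicates 2 and 3, and MRPS30 rose without that library (0.33 ± 0.08, adjusted p = 0.00071) but not with it (0.05 ± 0.20, adjusted p = 0.88).

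The remaining 11 of the 16 that rose without DMSO replicate 1 were MRPL3, MRPL11, MRPL15, MRPL18, MRPL19, MRPL23, MRPL51, MRPS6, MRPS15, MRPS18C and MRPS36. The 16 covered log2 fold changes of 0.19 to 0.74. MRPS36 has since been assigned to the 2-oxoglutarate dehydrogenase complex and not to the ribosome. The remaining 19 of the 24 that fell were MRPL2, MRPL10, MRPL12, MRPL16, MRPL24, MRPL27, MRPL30, MRPL34, MRPL45, MRPL49, MRPL55, MRPL57, MRPS2, MRPS10, MRPS11, MRPS14, MRPS18B, MRPS26 and MRPS34. The 24 covered -0.92 to -0.19.

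**Figure D2:**
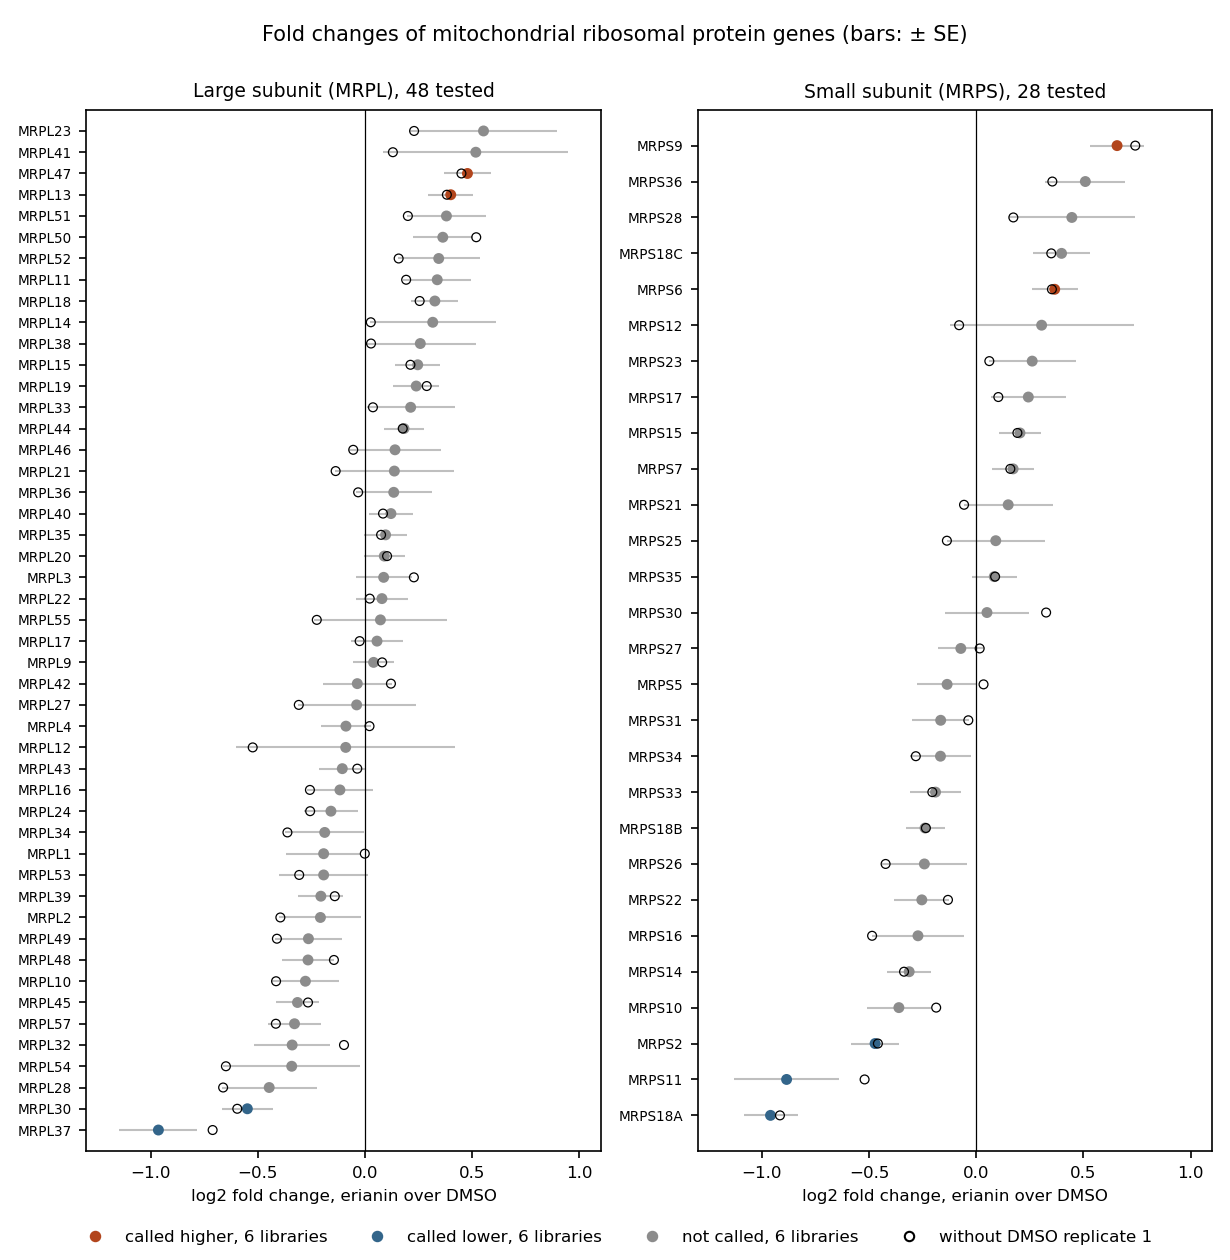
Log2 fold change of each tested member, erianin over DMSO, for the large (48) and small (28) subunit, with 6 libraries (filled points, bars ± SE, coloured where called) and without DMSO replicate 1 (open points). Members spread to both sides of 0 in both subunits, from -0.96 for MRPL37 to 0.66 for MRPS9, and MRPL12 has the longest bar (SE 0.51).

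Large-subunit members had a median log2 fold change of 0.06 over 48 tested and small-subunit members one of -0.01 over 28 tested, against -0.003 for all genes. The medians were -0.01 and -0.05 without DMSO replicate 1, against 0.03 for all genes. In the large subunit 2 members rose and 2 fell with 6 libraries, and 10 rose and 15 fell without DMSO replicate 1. In the small subunit 2 rose and 3 fell with 6 libraries, and 6 rose and 9 fell without DMSO replicate 1. Over all genes tested, 11.8% rose and 12.3% fell with 6 libraries, and 27.8% rose and 27.4% fell without that library. The difference between the subunits' medians, 0.075 on the log2 scale, was not tested, and it was 0.03 without DMSO replicate 1.

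The summed level of the large subunit was 3393, 3277 and 3405 CPM with erianin, against 3109, 3733 and 3676 CPM with DMSO. That of the small subunit was 2038, 1972 and 2050.0 CPM with erianin, against 2094, 2316 and 2303 CPM with DMSO. The erianin libraries lay below DMSO replicates 2 and 3 in both sums, while DMSO replicate 1 was below them in the large and above them in the small subunit. The ratio of large to small was 1.665, 1.662 and 1.661 with erianin, against 1.485, 1.612 and 1.596 with DMSO. With MRPS18A and MRPS30 counted with the large subunit, as in the structure, it was 1.837, 1.825 and 1.835 with erianin, against 1.754, 1.823 and 1.797 with DMSO. Both ratios were higher in all erianin than in all DMSO libraries, by less in the second. MRPS36 stayed in the small-subunit sum in both.

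**Figure D3:**
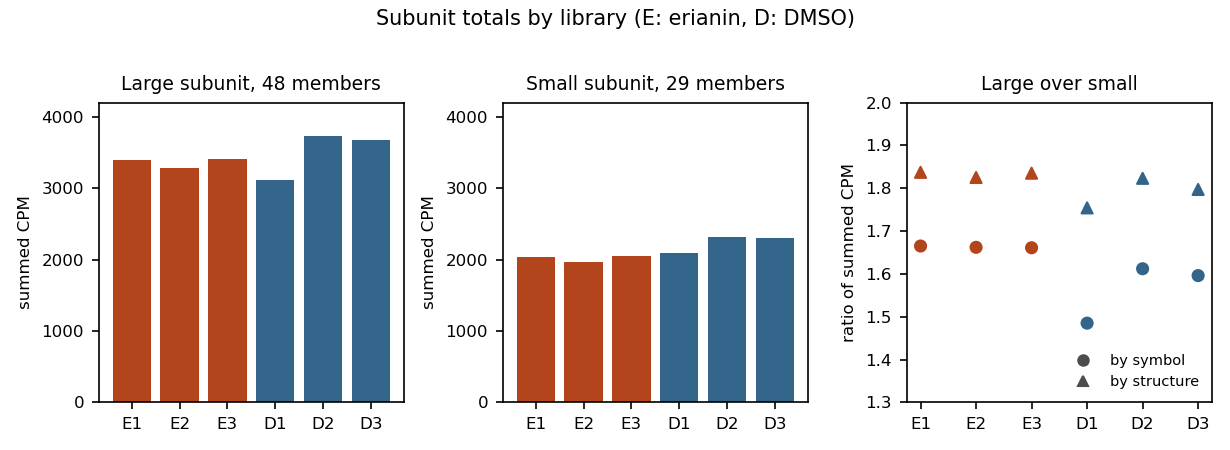
Summed CPM of the 48 large-subunit and 29 small-subunit members (bars from 0) and the ratio of the sums (right; y axis from 1.3) in erianin libraries E1 to E3 and DMSO libraries D1 to D3. The ratio is plotted by symbol (circles) and with MRPS18A and MRPS30 moved to the large subunit (triangles), and D1 has the lowest value of both.

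Proteins with and without a bacterial homolog were also counted. Over all genes tested, 11.8% rose and 12.3% fell with 6 libraries, and 27.8% rose and 27.4% fell without DMSO replicate 1. Of the 28 tested large-subunit members listed as conserved, 1 rose and 1 fell (median log2 fold change 0.07), with 7 higher and 9 lower without DMSO replicate 1. Of the 20 listed as mitochondria-specific, 1 rose and 1 fell (median 0.02), with 3 higher and 6 lower. MRPL47 and MRPL55 have bacterial homologs and had been listed as specific. With them moved, 2 of 30 conserved members rose and 1 fell, and 0 of 18 specific members rose and 1 fell. Without DMSO replicate 1, 2 of these 18 rose and 5 fell. Of the 17 conserved small-subunit members 2 rose and 3 fell (median 0.15), with 4 higher and 7 lower without DMSO replicate 1. Of the 11 specific to mitochondria 0 rose and 0 fell with edgeR (median -0.07), with 2 higher and 2 lower without DMSO replicate 1. At an unadjusted edgeR p under 0.05, 1 of these 11 was higher and 0 lower, and 1 of the 18 was higher. The 1 of the 11 was MRPS36 (0.51, adjusted p = 0.087), since assigned to the 2-oxoglutarate dehydrogenase complex and not to the ribosome. DESeq2 and limma-voom called 0 in each of these cases.

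Levels were compared between members in TPM, which is scaled by gene length. Group means ran from 0.414 to 721 TPM with erianin and from 0.220 to 739 TPM with DMSO, with medians of 61.7 and 45.2 TPM. TPM columns summed to 63.6% to 65.2% of the total that defines the unit with erianin and to 39.2%, 66.7% and 65.7% with DMSO replicates 1, 2 and 3, and the DMSO means include replicate 1. MRPL14, the homolog of bacterial L14, averaged 721 ± 37.0 TPM with erianin and 519 ± 283 TPM with DMSO (SD, n = 3 each). MRPS26, a mitochondria-specific protein, averaged 713 ± 75.3 TPM with erianin and 739 ± 318.5 TPM with DMSO. The 2 genes differed by less than their spread over all libraries of each group, but DMSO replicates 2 and 3 alone gave 682 ± 0.0492 TPM for MRPL14 and 921 ± 51.6 TPM for MRPS26 (SD, n = 2), which do not overlap.

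Next came MRPS34 with 449.8 ± 35.5 TPM with erianin and 437 ± 157 TPM with DMSO, and MRPS10 with 406 ± 39.8 TPM with erianin and 428 ± 32.8 TPM with DMSO. In DMSO replicates 2 and 3 alone MRPS34 averaged 527 ± 9.59 TPM and MRPS10 averaged 445 ± 16.0 TPM, further apart than their SDs. MRPL18, the homolog of bacterial L18, followed with 293 ± 8.46 TPM with erianin and 201 ± 63.0 TPM with DMSO. Of these 5 genes none was called with 6 libraries by edgeR with TMM scaling (adjusted p = 0.070 for MRPL18 to 0.48 for MRPL14). MRPL18 was called with upper-quartile scaling (adjusted p = 0.041), total counts (0.024), offsets (0.016) and DESeq2 (0.040), and MRPS26 and MRPS10 with offsets (adjusted p = 0.0086 and 0.020). Without DMSO replicate 1, MRPS26, MRPS34 and MRPS10 fell (by 0.42, 0.28 and 0.19 on the log2 scale) and MRPL18 rose (0.26).

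At the low end, MRPL53 averaged 4.70 ± 0.615 TPM with erianin and 4.64 ± 1.72 TPM with DMSO, and MRPL38 averaged 1.62 ± 0.145 TPM with erianin and 1.20 ± 0.584 TPM with DMSO. MRPS24, the homolog of bacterial S3, averaged 0.414 ± 0.212 TPM with erianin and 0.220 ± 0.108 TPM with DMSO. It had 9, 8 and 19 counts with erianin, against 4, 7 and 9 counts with DMSO, and was not tested. These 3 genes share 45.2% (MRPL53), 37.5% (MRPL38) and 23.2% (MRPS24) of their exonic bases with another gene on the same strand in GENCODE 29. The part of this overlap in their low counts was not tested. In all, 8 of the 75 members with an entry there share over 20% of their exonic bases with another gene on the same strand, and 7 with one on the opposite strand. The identifier beside MRPS17, like that of MRPL30, is that of an unnamed gene, 88.6% of whose exonic bases are shared with MRPS17 and ZNF713 together.

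The members' position in DMSO replicate 1 moved with base composition. Over 74 members with an entry in GENCODE 29, GC content ran from 33.5% to 71.95%, with a median of 48.1%, against 48.4% over 11404 tested genes. Their longest transcripts were shorter, with a median of 1724 bases against 3576 bases. Spearman's rho between GC content and the log2 difference of DMSO replicate 1 from the other DMSO libraries was -0.46 across the 74 members and -0.52 across the 11404 genes, and with length it was 0.33 in both. The genes share the same libraries and are not independent replicates. Without DMSO replicate 1, rho between GC content and the log2 fold change was -0.43 across the members and -0.19 across all genes. Median GC content was 41.7% over the 16 members that rose, 53.0% over the 23 of 24 that fell and have an entry, and 45.2% over the others. The part of base composition in these changes was not tested beyond the offsets above.

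**Figure D4:**
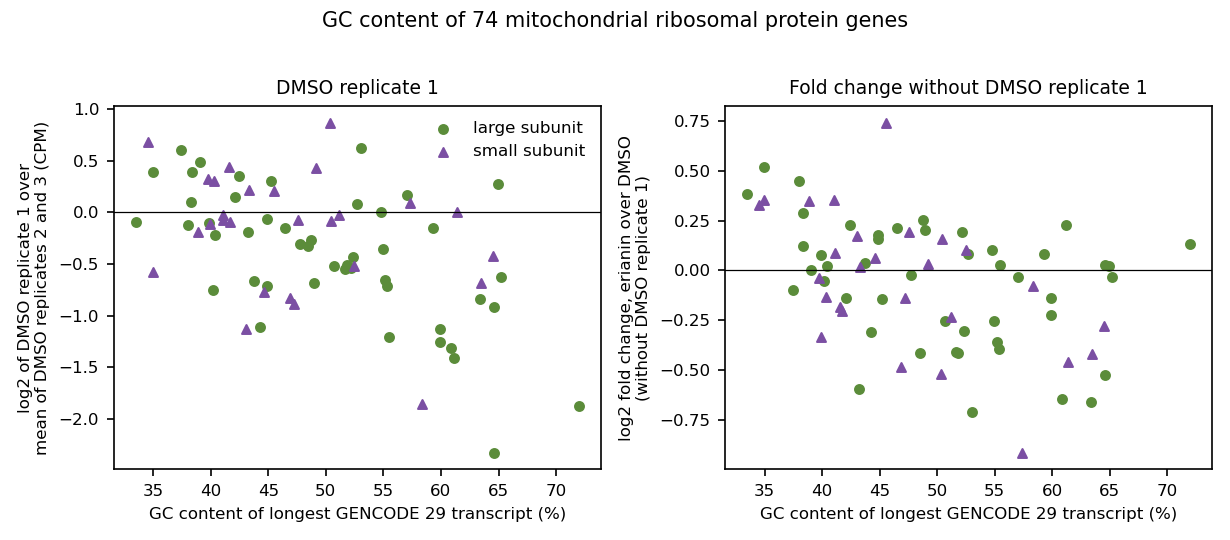
GC content of the longest GENCODE 29 transcript (x axes, %) of 74 members, by subunit, against the log2 ratio of DMSO replicate 1 to the mean of DMSO replicates 2 and 3 (left) and against the log2 fold change of erianin over DMSO without DMSO replicate 1 (right). GC-rich members are low in DMSO replicate 1 (rho -0.46), and on the right points also fall with GC content (rho -0.43).

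In RefSeq's promoter windows, matched for 68 of the 77 members, the ETS motif CCGGAAG (both strands) was found in 28 (41.2%), against 19.8% of 9113 windows of tested genes and 10.7% of all 27305. The YY1 motif AAGATGGCG was found in 13 (19.1%), against 4.28% of tested genes. The NRF1 half-site GCGCATGC was in 6 (8.82%) against 5.98%, the full NRF1 palindrome in 1 (1.47%) against 2.49%, the E-box CACGTG in 6 (8.82%) against 10.4%, and CCAAT in 20 (29.4%) against 37.3%. By direction without DMSO replicate 1, the ETS motif was in 4 of 12 windows of members that rose, 10 of 22 that fell and 14 of 33 not called. CCAAT was in 7 of the 12, 4 of the 22 and 9 of the 33. These are counts of letters, and no test was made.

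A divergent coding neighbour that starts within 1000 bases on the opposite strand was found for 17 of 74 members (22.97%), against 10.3% of 10877 tested genes. MRPS11 and MRPL46 are such a pair, with gene starts 34 bases apart. MRPL46, a large-subunit protein, had 8.79, 9.85 and 10.4 CPM with erianin, against 6.045, 9.95 and 10.35 CPM with DMSO, and was not called (adjusted p = 0.68, or 0.72 without DMSO replicate 1). So MRPS11 fell and its neighbour gave no call, and the difference between them was not tested.

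With 6 libraries, MRPL30, MRPL47 and MRPS11 were the called members among the 17. Their neighbours were not called (adjusted p = 0.94, 0.86 and 0.68), so no pair was called together. Over the 17 members, without DMSO replicate 1, both the member and its neighbour were called in the same direction in 4 and in opposite directions in 4. The 17 hold MRPS11 and MRPL46, each as the neighbour of the other. Over all genes tested in those libraries 27.8% rose and 27.4% fell, and the same count over all divergent pairs was not made. MRPL18 and TCP1, a chaperonin subunit, rose together (0.26 and 0.35), and MRPL57 and SKA3, a kinetochore protein, fell together (-0.42 and -0.51). MRPL47 rose (0.45) while NDUFB5, a complex I subunit whose start lies 36 bases away, fell (-0.265, adjusted p = 0.0058). With 6 libraries the log2 fold change of NDUFB5 was -0.061 (adjusted p = 0.86).

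Other genes of mitochondrial translation also went both ways. Over all genes tested, 11.8% rose and 12.3% fell with 6 libraries, and 27.8% rose and 27.4% fell without DMSO replicate 1. Among 5 ribosomal proteins with other symbols, 0 rose and 0 fell with edgeR and TMM scaling on 6 libraries, and 1 rose and 2 fell without DMSO replicate 1. With 6 libraries 1 of the 5 was higher and 0 lower at an unadjusted edgeR p under 0.05, and DESeq2 and limma-voom called 0. DAP3, a GTP-binding protein of the small subunit, averaged 252 ± 7.21 CPM with erianin and 199 ± 29.8 CPM with DMSO (adjusted p = 0.088) and rose without that library (0.48, adjusted p = 3.2e-07). On 6 libraries DAP3 was called higher with upper-quartile scaling (adjusted p = 0.037), total counts (0.048), offsets (0.030) and on the log2(TPM + 1) and log2(TPM + 0.1) scales (0.030 and 0.033). On those TPM scales the median over all genes was itself 0.202 and 0.277. PTCD3 and CHCHD1, both of the small subunit, had log2 fold changes of -0.24 (adjusted p = 0.16) and 0.31 (adjusted p = 0.26).

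Of 23 assembly and rRNA modification genes tested, 2 rose and 2 fell, with 3 higher and 12 lower without DMSO replicate 1, and medians of -0.18 and -0.25. FASTKD2, needed for the large-subunit rRNA, averaged 45.8 ± 2.94 CPM with erianin and 32.4 ± 1.18 CPM with DMSO (0.50, adjusted p = 0.014). MTERF4, which brings an rRNA methyltransferase to the large subunit, averaged 27.96 ± 0.525 CPM with erianin and 44.0 ± 7.71 CPM with DMSO (-0.66, adjusted p = 0.016). NOA1, a GTPase of small-subunit assembly, averaged 93.8 ± 3.16 CPM with erianin and 121 ± 2.72 CPM with DMSO (-0.36, adjusted p = 0.029).

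Of 15 translation factor genes tested, 1 rose and 2 fell, with 6 higher and 5 lower without DMSO replicate 1. OXA1L, which inserts new proteins into the inner membrane, averaged 144 ± 2.36 CPM with erianin and 214 ± 14.2 CPM with DMSO (-0.575, adjusted p = 0.0075). MTFMT, which formylates the initiator tRNA, averaged 12.6 ± 1.07 CPM with erianin and 8.34 ± 0.707 CPM with DMSO (adjusted p = 0.018). TACO1, an activator of COX1 translation, averaged 20.04 ± 2.51 CPM with erianin and 28.5 ± 2.87 CPM with DMSO (-0.51, adjusted p = 0.036).

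Of 20 tRNA-charging genes tested, 1 rose and 4 fell, with 5 higher and 7 lower without DMSO replicate 1. Over all genes tested, 11.8% rose and 12.3% fell, and 27.8% rose and 27.4% fell without that library. QRSL1, a subunit of the enzyme that makes glutaminyl-tRNA, averaged 66.3 ± 6.14 CPM with erianin and 103.9 ± 0.320 CPM with DMSO (-0.65, adjusted p = 0.0069). WARS2, the tryptophanyl-tRNA synthetase, averaged 7.64 ± 0.302 CPM with erianin and 12.9 ± 1.49 CPM with DMSO (-0.76, adjusted p = 0.0087). TARS2, the threonyl-tRNA synthetase, averaged 118 ± 2.49 CPM with erianin and 164 ± 6.02 CPM with DMSO (-0.48, adjusted p = 0.011). Of 5 mitochondrial transcription genes 0 were called with edgeR and TMM scaling on 6 libraries and 2 rose without DMSO replicate 1, namely TFAM, which packages mitochondrial DNA (0.21, adjusted p = 0.012), and MTERF1 (0.46, adjusted p = 0.0047). MTERF1 was also called on 6 libraries with upper-quartile scaling (adjusted p = 0.047) and with offsets (adjusted p = 0.040). With 6 libraries 1 of these 5 was higher and 0 lower at an unadjusted edgeR p under 0.05, and DESeq2 and limma-voom called 0. TFB2M, a transcription initiation factor, had log2 fold changes of 0.11 and 0.05. Of the 9 called genes named in these lists, all 9 lost their call without erianin replicate 2, and all but QRSL1 without erianin replicate 1. MTERF4, NOA1, MTFMT and TACO1 also did so without erianin replicate 3, FASTKD2, NOA1 and TACO1 without DMSO replicate 2, and these 3 and MTFMT without DMSO replicate 3 (adjusted p up to 0.16 over these). On both log2 TPM scales all but FASTKD2 lost it. Upper-quartile scaling and total counts ended the calls of NOA1 (adjusted p = 0.069 and 0.084) and TACO1 (adjusted p = 0.069 and 0.064), and no filter that of NOA1 (adjusted p = 0.063). Mitochondrially encoded transcripts were not analysed here.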

How the data were processed

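RNA of SU-DHL-8 cells was sequenced in 6 libraries, 3 with erianin and 3 with DMSO. The authors deposited raw counts per gene, one column per library, and TPM values in a second table. Tools listed, per the submitters' processing notes, include StringTie 2.2.1, featureCounts 2.0.1, STAR 2.7.10 and fastp 0.23.2, with hg38 as the genome. How strand, multiply mapped reads and annotation were handled is not given in the sources used here. Of 65807 rows, 61 repeats were left out. The largest and smallest total counts give a floor of 3 counts at 0.0843 to 0.0969 CPM.

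Counts were fitted with edgeR 4.0.16 in R 4.3.3 (TMM factors, filterByExpr, quasi-likelihood F test, Benjamini-Hochberg over 11550 genes, threshold 0.05). The standard error is the log2 fold change over the root of F. The script was tested on simulated data. Levels between genes use the deposited TPM. Offsets for GC content and length were smooth terms fitted with mgcv on GENCODE 29 transcripts.

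Named members are those called, the 5 with the smallest p in each direction without DMSO replicate 1, the 5 highest and 3 lowest in TPM, those not tested, and MRPS18A, MRPS18B, MRPS18C, MRPS30, MRPL12 and MRPL58. Others are up to 3 of the smallest p per list. MRPL46, MRPL57 and the neighbours were named after their values were seen. The members and lists were chosen with earlier results of these data known. Alternatives were other scalings, filters, tests and TPM scales, a replicate block, offsets, sample weights and leaving out each library.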

Additional observations from a re-analysis of the deposited data

How the results depend on the processing

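Main counts were 4 members higher and 5 lower with erianin. Upper-quartile scaling gave 7 higher and 5 lower, against 15.3% and 9.5% of all genes. Total counts alone gave 8 higher and 3 lower, against 15.9% and 7.9%. No filter gave 2 higher and 5 lower, against 7.0% and 7.5%, and DESeq2 gave 6 higher and 8 lower, against 15.1% and 16.4%. The log2(TPM + 1) and log2(TPM + 0.1) scales each gave 2 higher and 2 lower. On these scales 12.2% and 10.9% of all genes were higher, and only 2.3% and 2.1% lower. GC and length offsets gave 4 higher (5.26%) and 18 lower (23.7%), against 17.6% and 18.1% of all genes. Leaving out 1 library in turn gave 0 to 16 higher and 1 to 24 lower, with the highest counts without DMSO replicate 1. Over all genes, calls moved the same way, with 745 to 6505 in these fits against 2791. Alternatives chosen after seeing the data gave 21 higher and 31 lower (offsets without DMSO replicate 1), 11 and 24 (replicate block without DMSO replicate 1) and 18 and 27 (sample quality weights), with 7265, 5690 and 7408 calls over all genes. Whether same-numbered libraries pair could not be told. Their deviations from the group mean correlated at 0.167, -0.143 and 0.231, and erianin replicates 2 and 3 correlated best with other numbers. DMSO replicates 2 and 3 gave near-equal values with erianin replicate 1 (-0.145 and -0.129), 2 (-0.143 and -0.140) and 3 (0.248 and 0.231). DMSO replicate 1, which stood apart, enters every DMSO deviation, so these values cannot decide it. The replicate block gave 2 higher and 5 lower, with 2296 calls over all genes, and ended the calls of MRPL13 (adjusted p = 0.076), MRPS6 (0.10), NOA1 (0.087) and TACO1 (0.052). The median over all genes was 0.106 with total counts, 0.202 on log2(TPM + 1) and 0.277 on log2(TPM + 0.1), against -0.003.

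The large and small medians were 0.178 and 0.096 with total counts and 0.146 and 0.077 with upper-quartile scaling. By structure the small median was 0.006. On log2(TPM + 1) the large and small medians were 0.327 and 0.272, and on log2(TPM + 0.1) they were 0.356 and 0.278. The difference between them, 0.075, was 0.015 with no filter, 0.047 by structure, 0.044 with offsets, 0.034 to 0.191 leaving out 1 library, 0.014 with offsets without DMSO replicate 1, 0.028 with the block without it and 0.000 with quality weights.

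Over 39 named genes and 780 alternative values, 566 kept direction and side of the threshold, 101 lost and 88 gained a call, and 25 changed sign, none of them called; the cause was not tested. On log2(TPM + 1) and log2(TPM + 0.1) these were MRPS16 0.047 and 0.050, MRPL54 0.041 and 0.044, MRPS26 0.060 and 0.060, MRPS34 0.116 and 0.116, MRPL53 0.061 and 0.086, MRPS18B 0.034 and 0.034, PTCD3 0.032 and 0.034, and MRPL12 0.483 and 0.505. The median over all genes on these scales was 0.202 and 0.277. MRPL12 was also 0.030 with total counts, 0.171 with the replicate block, 0.217 with limma-voom, and 0.193 and 0.196 without DMSO replicates 2 and 3. MRPS30 was -0.051 and -0.090 without them, and leaving out 1 library in turn spanned -0.090 to 0.326 for MRPS30 and -0.524 to 0.196 for MRPL12. MRPL14 was -0.005 with quality weights, and TFB2M -0.036 with offsets without DMSO replicate 1. MRPS24 had too few counts to be tested.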
